A study of Mus musculus with 45 samples.

Results

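The genes that encode the core and linker histones were followed through 15 groups of mouse embryonic stem cell (ESC) libraries. They were chosen by name alone, as every gene whose symbol begins with Hist1h to Hist4h, or with H1f, H2ac, H2bc, H3c or H4c and then a digit. The rule took 72 of the 55401 genes in the tables, and the same Ensembl identifiers were used in all experiments. By histone type these were 11 H1, 20 H2A, 17 H2B, 12 H3 and 12 H4 genes. The name rule is wider than replication-dependent histones. From what the symbols are known to stand for, 61 were replicative genes, 4 were replacement linker histones (H1f0, H1f7, H1f8 and H1f10), 3 were testis variants (H1f6, H2ac1 and H2bc1) and 4 were pseudogenes. These classes are kept apart below.

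Replication-dependent histone genes supply the histones that package newly made DNA, and they are transcribed in S phase at a nuclear body that is organised by NPAT. They have no introns. Their mRNAs end in a short stem-loop bound by SLBP in place of a poly(A) tail, and they are degraded when replication stops. Replacement histones, such as H1.0 and H3.3, come from ordinary polyadenylated mRNAs and are made outside S phase as well. Per the paper, libraries of unsorted cells were mRNA or poly(A)-enriched libraries, and those of sorted cells were low-input RNA libraries with no selection named. The values below cover the part of the histone mRNA that such libraries capture. In 2-cell embryos and in 2-cell-like cells (2CLC), a rare ESC state, the MERVL retrovirus and its neighbouring genes are active. EHMT2 is the enzyme, also known as G9a, that places mono- and dimethylation on lysine 9 of histone H3 together with EHMT1.

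The study had 45 bulk RNA libraries in 15 groups of 3, all of ESC grown in FBS/LIF. In the time course, the clones E2-17, E2-20 and E2-K71 of the BL6/129 line EHMT2-dTAG-mcherry, whose EHMT2 protein carries a degradation tag, received DMSO or the degrader dTAG for 24 h or 7 d. In the washout experiment, cells of this line received DMSO or dTAG for 15 d, or dTAG for 7 d and then DMSO for 8 d (Recovery). In the sorting experiment, EHMT2-dTAG-mcherry-mervl-gfp cells, which also carry a GFP reporter driven by MERVL, received DMSO or dTAG for 72 h and were sorted into GFP-positive cells (2CLC) and GFP-negative cells (mESC). In the Dppa4 experiment, 3 clones each of WTJ1 cells (WT) and of cells depleted of DPPA4 by CRISPR/Cas9 (KO) were grown for 48 h with DMSO or with UNC0638, which blocks the enzymes EHMT1 and EHMT2. DPPA4 is a chromatin factor known to promote entry into the 2-cell-like state. The degrader acts on the protein, so Ehmt2 mRNA does not check the labels. It stood at 101 to 116 in sorted mESC and 64.6 to 67.5 in 2CLC, and Ehmt1 at 472 to 530 in these groups.

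The time course, washout and sorting tables held 1 value per gene and group, the authors' mean normalized count of 3 libraries. No spread between replicates, and thus no test, could be had from them, and their fold changes are descriptions. A difference there is given as log2 of the ratio of means after adding 1 to each, over genes whose mean over the groups of the experiment was at least 10, and a gene is counted as higher or lower when the means lay at least 2-fold apart. The Dppa4 table held each library, and it was tested with limma. Group totals over genes were 14402265 to 14906001 in the time course, 20488479 to 21894479 in the washout and 8706492 to 11520046 in the sorted cells. The Dppa4 libraries held 8399885 to 12710949 gene reads. Tables were normalized separately, and levels are not compared between experiments.

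The stem-loop is the feature that sets these mRNAs apart from nearly all others, and it was found as a perfect 16-base element in the annotated GENCODE vM21 transcripts (GRCm38) of 43 of the 72 members. Some of the other annotated transcripts are short, such as H4c12 at 312 bases beside 397 for H4c2, which holds the element. The lack of a match therefore does not show that an mRNA lacks it. In 9 of the 43 the annotated transcript ended at most 30 bases past the element, close to where a processed histone mRNA ends. In 18 it ran on for 30 to 200 bases and in 16 for more than 200 bases. The replicative gene with the highest level of each type in DMSO 2CLC (described below), and H4c2, are shown here, 5′ to 3′, with the stem-loop in capitals and 5 bases on either side.
H4c9: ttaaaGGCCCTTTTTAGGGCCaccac
H4c2: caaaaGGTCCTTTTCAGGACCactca
H3c3: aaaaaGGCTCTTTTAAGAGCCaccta
H2bc11: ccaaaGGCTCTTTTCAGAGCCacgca
H2ac8: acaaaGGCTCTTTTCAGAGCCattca
H1f2: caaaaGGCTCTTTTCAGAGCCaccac
The H2bc11 and H4c2 transcripts ended 23 and 28 bases past it, and those of H3c3, H2ac8, H4c9 and H1f2 ended 74, 151, 330 and 840 bases past it.

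Promoter sequence was at hand for 62 members (RefSeq, GRCm38.p6, 250 bases before to 50 after the start). CCAAT, searched on both strands, was in 79.0% of them and in 33.8% of all 32817 promoters. All H1, H2A and H2B replicative promoters held it, as did 80.0% of the H3 and 27.3% of the H4 promoters. A TATA box, searched as TATAAA or TATATA (spellings that can overlap) on the sense strand in the last 50 bases before the start, was in 37.1% against 3.67%. The octamer ATTTGCAT was in 19.4% against 1.60%, and among replicative members those that held it were H2A or H2B genes. An E2F sequence (TTTGGCGC, TTTCCCGC, TTTGGCGG or TTTCGCGC) was in 12.9% against 1.96%. These were also searched on both strands. Such matches describe the letters of the window and do not show binding. The 120 bases before the start are given for the replicative gene with the highest level of each type in DMSO 2CLC and for the replacement gene H1f0, with CCAAT, TATA box and octamer matches in capitals.
H4c9, chr13:22041363-22041482, minus strand: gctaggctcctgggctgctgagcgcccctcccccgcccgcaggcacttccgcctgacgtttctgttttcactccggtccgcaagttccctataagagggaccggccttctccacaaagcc
H3c3, chr13:23745522-23745641, minus strand: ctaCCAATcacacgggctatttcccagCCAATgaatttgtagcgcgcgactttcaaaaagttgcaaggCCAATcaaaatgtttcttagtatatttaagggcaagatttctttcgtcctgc
H2bc11, chr13:22043078-22043197, plus strand: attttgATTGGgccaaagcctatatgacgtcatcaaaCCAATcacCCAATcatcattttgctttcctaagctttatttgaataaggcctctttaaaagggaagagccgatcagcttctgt
H2ac8, chr13:23571221-23571340, minus strand: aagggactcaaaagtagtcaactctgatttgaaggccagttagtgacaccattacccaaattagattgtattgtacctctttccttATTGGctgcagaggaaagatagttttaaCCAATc
H1f2, chr13:23738687-23738806, plus strand: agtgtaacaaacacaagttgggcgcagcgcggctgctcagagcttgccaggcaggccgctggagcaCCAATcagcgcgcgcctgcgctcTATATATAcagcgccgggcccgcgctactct
H1f0, chr15:79028092-79028211, plus strand: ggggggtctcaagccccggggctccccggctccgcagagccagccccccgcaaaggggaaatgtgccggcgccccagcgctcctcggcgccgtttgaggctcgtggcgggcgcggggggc
H3c3, H2bc11 and H2ac8 carried CCAAT repeatedly, H1f2 carried 1 CCAAT and a TATA run, and no match lay in these 120 bases of H4c9 or H1f0.

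Most members lay close together. The cluster on chromosome 13 held 56 of them, the cluster on chromosome 3 held 10, and 6 lay elsewhere. The genes are near copies of one another. A stretch of 100 bases was shared with another annotated gene, on either strand, by 63 of the 72. Such a gene could be another member or an overlapping gene outside the rule. Over 50% of such stretches were shared in 29, and 28 overlapped another annotated gene. Reads that fit several places were put at 1 of them at random by the authors, so the values of single near-identical genes are uncertain, while sums over a type are less affected.

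Sorted 2CLC were compared with mESC of the same culture to ask how histone mRNA differs between the states. In DMSO cells, 64 of the 65 members that passed the filter were at least 2-fold higher in 2CLC and 0 were lower, against 15.4% of all 17331 genes higher and 8.76% lower. The median difference was 3.37 on the log2 scale, a 10.3-fold ratio, and that of all genes was -0.03. In dTAG cells, 62 of 65 were higher and 0 lower, against 13.9% and 6.95% of all genes, with a median of 3.00 (8.02-fold) against -0.06. The 7 members that did not pass were H1f6, H1f7, H1f8, H1f11-ps, H2ac1, H2ac21 and H2ac5-ps. A member could pass through the 2CLC value alone. Counting only those with a mean of at least 10 in DMSO mESC, a choice made after seeing the data, 57 of 58 were higher in 2CLC, and 55 of 57 with that mean in dTAG mESC were higher in dTAG 2CLC. With no filter, all 61 replicative genes had the higher mean in 2CLC under both treatments.

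The replicative genes together summed to 1906 normalized counts in DMSO mESC and 25223 in DMSO 2CLC, or 0.0218% and 0.259% of the gene total. This is a 13.2-fold ratio. In dTAG cells the sums were 2115 and 20253 (0.0243% and 0.176%), a 9.58-fold ratio. All 60 replicative genes past the filter were at least 2-fold higher in DMSO 2CLC, from 1.59 on the log2 scale for H1f4 to 5.15 for H4c9. In dTAG cells 59 were, and H2ac20 lay just under the threshold at 0.95. The difference did not rest on H4c9 alone, since the sum without it differed by 3.48 on the log2 scale in DMSO cells and by 3.13 in dTAG cells.

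**Figure D1:**
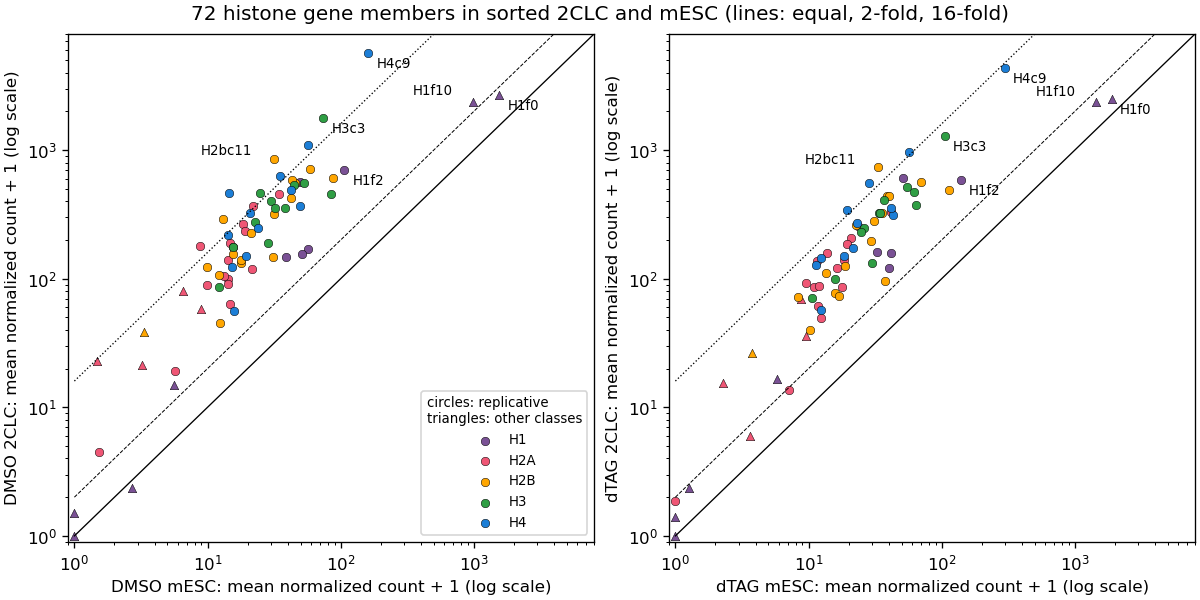
Mean normalized count plus 1 of each of the 72 members in mESC (horizontal, log scale) against 2CLC (vertical, log scale), for DMSO cells on the left and dTAG cells on the right. Circles are replicative genes and triangles the other classes, coloured by histone type, and the lines mark equal, 2-fold and 16-fold levels. Nearly all circles lie above the 2-fold line, H4c9 is the highest in 2CLC (5728 in DMSO cells), and H1f0 and H1f10 lie near the 2-fold line.

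Among the types, the replicative H4 genes had the highest median difference in DMSO cells (3.73), followed by H3 (3.49), H2B (3.32), H2A (3.29) and H1 (1.93). The order in dTAG cells was the same, with 3.51, 3.22, 3.02, 2.96 and 2.06. The ranges of the types overlapped widely, and with group means the spacing between neighbouring types could not be set against a replicate error.

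H4, which pairs with H3 at the centre of the nucleosome, was led by H4c9. This gene stood at 160 in DMSO mESC and 5728 in DMSO 2CLC (35.7-fold), and at 296 and 4386 in dTAG cells (14.8-fold). It made up 35.0% of the H4 sum in DMSO mESC and 57.9% in DMSO 2CLC. H4c2 was lower in level, at 13.4 and 467 in DMSO cells, but nearly as far apart (34.7-fold). In dTAG cells H4c2 stood at 18.3 and 342. Hist1h4n stood at 56.2 and 1101 in DMSO cells, and Hist1h4m at 34.2 and 625. The lowest H4 difference was that of H4c14 (14.9 and 55.4), which lies in the chromosome 3 cluster.

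H3, the histone whose lysine 9 is methylated by EHMT2, was led by H3c3. It stood at 73.2 in DMSO mESC and 1770 in DMSO 2CLC (24.2-fold), and at 105 and 1297 in dTAG cells (12.4-fold). H3c6 had the highest mean of the type in DMSO mESC (84.0) and was at 452 in DMSO 2CLC, the smallest H3 difference (2.41). H3c10 stood at 51.7 and 556, and H3c8 at 43.4 and 531. H3c3 thus made up 16.3% of the H3 sum in DMSO mESC and 31.6% in DMSO 2CLC.

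H2A and H2B, which form the outer dimers of the nucleosome, spread their counts over more genes. H2bc11 was the H2B gene furthest apart, at 30.5 and 857 in DMSO cells and 32.4 and 739 in dTAG cells. H2bc12 stood at 57.5 and 709, and H2bc4 at 86.4 and 611. Among the H2A genes, H2ac8 stood at 33.3 and 457, H2ac12 at 21.1 and 368, and H2ac11 at 17.5 and 267. The lowest H2A and H2B differences were H2ac20 (4.74 and 18.2) and H2bc18 (11.5 and 44.1), both in the chromosome 3 cluster.

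The linker histones, which bind where DNA enters and leaves the nucleosome, split by class. The replicative H1f2 stood at 106 and 696 in DMSO cells and 138 and 582 in dTAG cells. H1f1 was furthest apart, at 48.4 and 565 in DMSO cells and 50.6 and 601 in dTAG cells. H1f4 and H1f3 were the replicative genes closest together, at 1.59 on the log2 scale for each. The replacement genes began from higher levels. H1f0 stood at 1558 and 2692 (1.73-fold) in DMSO cells and 1892 and 2508 (1.33-fold) in dTAG cells. H1f10 stood at 989 and 2361 (2.39-fold) and at 1439 and 2356 (1.64-fold). H1f0 was the only member past the filter that was not 2-fold higher in DMSO 2CLC, and H1f0, H1f10 and H2ac20 were those not 2-fold higher in dTAG 2CLC. The oocyte linker histone H1f8 and the spermatid linker histone H1f7 were at or near 0 in all sorted groups.

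**Figure D2:**
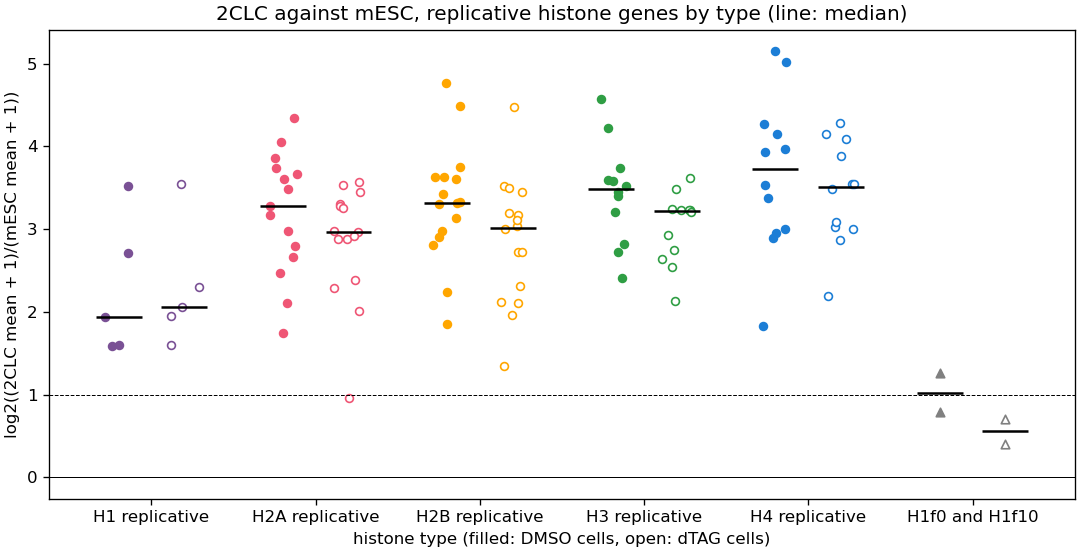
Difference between 2CLC and mESC, as log2 of the ratio of group means after adding 1 (vertical), for the replicative genes of each histone type (horizontal). Each point is a gene, filled for DMSO cells and open for dTAG cells, and lines are medians. H4 has the highest medians (3.73 and 3.51) and H1 the lowest (1.93 and 2.06), and the point at the top is H4c9 (5.15).

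Levels per kilobase of annotated exon, which adjust for annotated length, gave the following order. In DMSO mESC the highest were the replacement genes, H1f10 at 812 and H1f0 at 758 normalized counts per kb, with H4c9 at 221. In DMSO 2CLC H4c9 was at 7878, H3c3 at 2809, Hist1h4n at 2560, H1f10 at 1940 and H2bc11 at 1850. The lengths came from annotated GENCODE vM21 transcripts, while the authors counted on vM25. Many run past the stem-loop and others are short, such as H4c12 at 312 bases beside 2482 for H2ac6. The order therefore depends on the annotation.

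The difference was wide over both clusters. The 51 replicative genes of the chromosome 13 cluster had a median of 3.49 in DMSO cells and 3.20 in dTAG cells, with 51 of 51 at least 2-fold higher in both. The 9 of the chromosome 3 cluster that passed had medians of 2.47 and 2.19, with 9 and 8 higher. The chromosome 13 cluster has a gap, and the 23 genes on its side of lower coordinates and the 28 on the other had medians of 3.63 and 3.40 in DMSO cells. Groups made by the distance from the stem-loop to the annotated end lay close together. Genes ending at most 30 bases past it had a median of 3.63 in DMSO cells, those ending 30 to 200 bases past it 3.59, and those ending further on 3.25. The 17 genes that shared under 20% of their stretches with other annotated genes had a median of 2.98, and the 27 that shared over 50% had 3.49. All of both groups were at least 2-fold higher in DMSO 2CLC.

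Many H2A and H2B genes are transcribed away from each other from a shared promoter region. There were 11 such pairs, with starts 176 to 302 bases apart. Both genes were at least 2-fold higher in DMSO 2CLC in 11 of 11 pairs. All 17 H2A and all 17 H2B members past the filter were as well, so this count does not describe the pairing. The log2 differences of a pair lay within 1 of each other in all 11, with a median gap of 0.36. Gaps between unpaired H2A and H2B genes were not computed. Hist1h2an and Hist1h2bp were at 4.34 and 4.49. The widest gap, 0.91, was between H2ac11 (3.86) and H2bc11 (4.77). Per kb of annotated exon, the H2B gene was the higher of the pair in 6 of 11 in DMSO 2CLC, which depends on the annotated lengths.

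Histone genes outside the name rule did not all differ this way. Of 11 genes listed as replication-independent variants, 2 (H2ax and H2aw) were at least 2-fold higher in DMSO 2CLC, 2 were lower, and the median was 0.24. H2ax, the variant phosphorylated at DNA breaks, whose mRNA can also end in a stem-loop, stood at 4348 in mESC and 10688 in 2CLC. H2aw, a gene formerly named as a member of the Hist3 cluster, which the rule would take under that older name, stood at 16.8 and 61.5. The H3.3 genes H3f3a and H3f3b differed by 0.24 and 0.42 on the log2 scale. Macroh2a1 and Macroh2a2, which encode macroH2A, stood at 1422 and 596 and at 289 and 114. H2bu2, a replicative-type H2B gene whose symbol the rule does not take, stood at 24.0 and 396, and H4f16 at 8.12 and 15.2.

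Genes that act on histone mRNA or in the cell cycle lay closer together than the members did. Of 20 genes of histone transcription and 3′ end processing, 0 were at least 2-fold apart in DMSO cells and the median was -0.12, with Slbp at -0.06 and Npat at 0.37. The furthest of these were Cstf2t and Cstf2, paralogues of a cleavage stimulation factor, at 0.91 and -0.88, and the kinase partners Ccne2 and Cdk2 at 0.85 and -0.72. Of 15 histone chaperones 0 were 2-fold apart (median -0.09), with Chaf1b, a subunit of the replication-coupled chaperone CAF-1, at -0.97, the H3-H4 chaperones Asf1a and Asf1b at 0.80 and 0.66, and Ubn2, of the H3.3 chaperone HIRA complex, at -0.64. Of 34 S phase and DNA replication genes 0 were higher and 4 lower (Dscc1 at -1.64, Pola2 at -1.62, E2f2 at -1.39 and Ung at -1.07), with a median of -0.37 and 5 above 0. Of 24 G2 and mitosis genes 0 were 2-fold apart (median 0.22), with Cenpe, Cdk1, Hmmr and Aurka furthest at 0.86 to 0.92. Of the 9 passing genes for poly(A) polymerases and poly(A) binding, 2 were higher: Papolb, the testis poly(A) polymerase, stood at 27.2 and 185, and Papolg, a nuclear one, at 156 and 521. Tent4b and Papola were at 0.53 and -0.43 on the log2 scale. The part of cell cycle stage or of poly(A) addition in the histone difference was not tested.

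The sort itself could be read from the markers. Of 23 genes of the 2-cell stage, 22 were at least 2-fold higher in DMSO 2CLC, with a median of 7.34, and Zfp352 stood at 2.72 in mESC and 1928 in 2CLC. Sp110, Tdpoz4 and Tcstv3 were 8.67, 8.35 and 8.11 apart on the log2 scale. Of 15 pluripotency genes, 6 were lower and 0 higher (median -0.80), with Utf1, Klf4, Sox2 and Tfcp2l1 at -1.98, -1.64, -1.59 and -1.34. The cells had been grown on feeder fibroblasts. Of 15 passing fibroblast markers 4 were higher in DMSO 2CLC and 0 lower (median 0.71, with Thy1, Pdgfra, Col6a1 and Col3a1 at 1.96, 1.47, 1.39 and 1.01), and the sum of all 18 on the list was 10428 in mESC and 7345 in 2CLC. In bulk libraries, fewer cells of a type and less RNA per cell cannot be told apart.

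Loss of EHMT2 was compared within each sorted state, to ask whether it shifts histone mRNA beyond the change of state. In mESC, 0 of 65 members were at least 2-fold apart between dTAG and DMSO, against 7.63% of all genes higher and 1.92% lower. The median was 0.06 against 0.03 for all genes, and 35 members lay above 0. H4c9 was the furthest above (160 in DMSO and 296 in dTAG mESC, 0.88), followed by Hist1h2bp (12.0 and 21.8, 0.81) and Hist1h2an (7.83 and 12.7, 0.64). The furthest below were H4c6 (18.3 and 11.3, -0.65), H1f3 (-0.46) and H4c3 (-0.42). Of the 2-cell markers, 21 of 23 were at least 2-fold higher in the same comparison, and their sum stood at 2381 in DMSO and 18268 in dTAG mESC. The sum of the 18 fibroblast markers stood at 10428 and 13227, with 8 of the 15 passing higher. The part of these in the H4c9 value was not tested.

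In 2CLC, 0 of 65 members were at least 2-fold apart between dTAG and DMSO, against 4.75% higher and 2.11% lower of all genes. However, 60 of the 65 lay below 0, and their median was -0.31 against 0.01 for all genes. Many members are near copies that share reads, so such counts, here and below, are not counts of independent genes. The replicative sum stood at 25223 in DMSO and 20253 in dTAG 2CLC. H3c14 was the lowest of those passing (177 and 97.9, -0.84), with H2bc7 and H2bc13 at -0.77 each, and H1f5 was the highest (146 and 160, 0.13), with H1f1 and H4c3 at 0.09 and 0.06. The 2-cell markers lay the other way, with 11 of 23 at least 2-fold higher in dTAG 2CLC and a median of 0.98. The fibroblast markers were higher too, at 10 of the 15 passing and a sum over all 18 of 7345 and 14603, and their part in the histone values was not tested.

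The difference between the states had the lower value in dTAG cells for most members. Taking the log2 difference in dTAG cells minus that in DMSO cells, 52 of 65 members (80.0%) lay below 0, with a median of -0.38. Of all genes, 53.8% lay below 0 and the median was -0.04. H4c9 was the lowest at -1.27 and H4c6 the highest at 0.59. H4c9 was both higher in dTAG mESC and lower in dTAG 2CLC than in the matching DMSO cells. The 2-cell markers had a median difference between the states of 7.34 in DMSO and 4.67 in dTAG cells, and the part of this in the histone values was not tested. With 1 mean per group these differences could not be set against a replicate spread.

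In unsorted cultures the members were scarce. Of the 72, 18 passed the filter in the time course and 27 in the washout, and no H2A gene passed in either. The replicative sum was 743 in DMSO 24 h, 757 in DMSO 7 d, 770 in dTAG 24 h and 824 in dTAG 7 d, or 0.00514% to 0.00552% of the gene total. The median replicative gene had a mean of 6.47 over the time course and 8.75 over the washout.

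At 24 h of dTAG, 0 of 18 members were at least 2-fold apart from DMSO, against 3.27% of all genes higher and 1.65% lower, with a median of 0.18 against 0.01. H2bc12 was the highest (8.78 and 16.3, 0.82), with H2bc8 and H4c4 at 0.78 and 0.68. Hist1h2br was the lowest (17.1 and 10.6, -0.65), with H1f3 and H3c8 at -0.53 and -0.43. At 7 d, 0 members were higher and 2 lower, against 4.02% and 4.18% of all genes, with a median of 0.12. The lower members were H3 genes of the chromosome 3 cluster, H3c15 (20.1 in DMSO and 7.53 in dTAG, -1.31) and H3c14 (33.6 in DMSO, -1.02), followed by H2bc21 at -0.62. H4c9 lay highest, at 66.4 and 127 (0.93), followed by H1f0 and H1f1 (24.3 and 35.2, 0.52). Between 24 h and 7 d in DMSO, 0 of 18 members were 2-fold higher or lower (0.817% and 1.12% of all genes), with H2bc12, H4c4 and H1f3 highest (0.74, 0.70 and 0.50) and Hist1h2bq, Hist1h2br and H3c8 lowest (-0.39, -0.32 and -0.19). The replacement gene H1f0 stood at 550, 692, 851 and 1095 in DMSO 24 h, DMSO 7 d, dTAG 24 h and dTAG 7 d, and was higher with dTAG by 0.63 and 0.66.

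At 15 d of dTAG, 1 of 27 members was at least 2-fold higher and 0 lower, against 4.00% and 0.774% of all 17316 genes, yet 25 of 27 lay above 0. The median was 0.48 against -0.02 for all genes. H3c1 passed the threshold (9.49 and 24.9, 1.30), and H4c9 lay just under it (153 and 302, 0.98), with H4c4 next (12.3 and 22.2, 0.81). The members below 0 were H4c11 (-0.21) and H2bc4 (-0.07), with H2bc21 at 0.02. The sum of the replicative genes stood at 976 in DMSO and 1394 in dTAG, or 0.00454% and 0.00680% of the gene total, and the sum of the H4 genes at 232 and 426. Of the 34 S phase genes, 5 lay above 0 (median -0.15). Of the 23 genes of the 2-cell stage, 21 were at least 2-fold higher (median 4.56). Of 16 passing fibroblast markers 0 were 2-fold apart, but 14 lay above 0 (median 0.36), and the sum of all 18 stood at 20930 in DMSO and 25415 in dTAG. The part of these in the histone values was not tested.

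After 8 d without dTAG the members lay near the DMSO level. Against DMSO 15 d, 0 of 27 were at least 2-fold higher or lower, beside 1.58% and 1.11% of all genes, and the median was -0.04. The furthest below were H1f2 (124 and 64.4, -0.94), H2bc8 (-0.52) and H3c4 (-0.51), and the furthest above H1f1 (37.9 and 59.6, 0.64), Hist1h2bp (0.28) and H3c1 (0.25). In the same comparison 10 of 16 fibroblast markers were at least 2-fold lower and 0 lay above 0 (median -1.11), and 2 of 23 2-cell markers were higher (median 0.55). Their part in the histone values was not tested. Against dTAG 15 d, 0 were higher and 3 lower, beside 1.27% and 5.41% of all genes. Of the 27, 24 lay at or below 0 (median -0.57, against 0.04 for all genes). The 3 were H4c9 (302 and 137, -1.13), H1f2 (139 and 64.4, -1.09) and H3c1 (24.9 and 11.5, -1.05). Those above 0 were H1f5 (0.11), H2bc13 (0.08) and H1f1 (0.05). The replicative sum in Recovery was 863, or 0.00394% of the gene total. Both washout comparisons share groups with that of dTAG against DMSO and are not independent of it. Of the 2-cell markers, 21 of 23 were lower in Recovery than in dTAG, as were 13 of 16 fibroblast markers, whose part in the histone values was not tested.

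**Figure D3:**
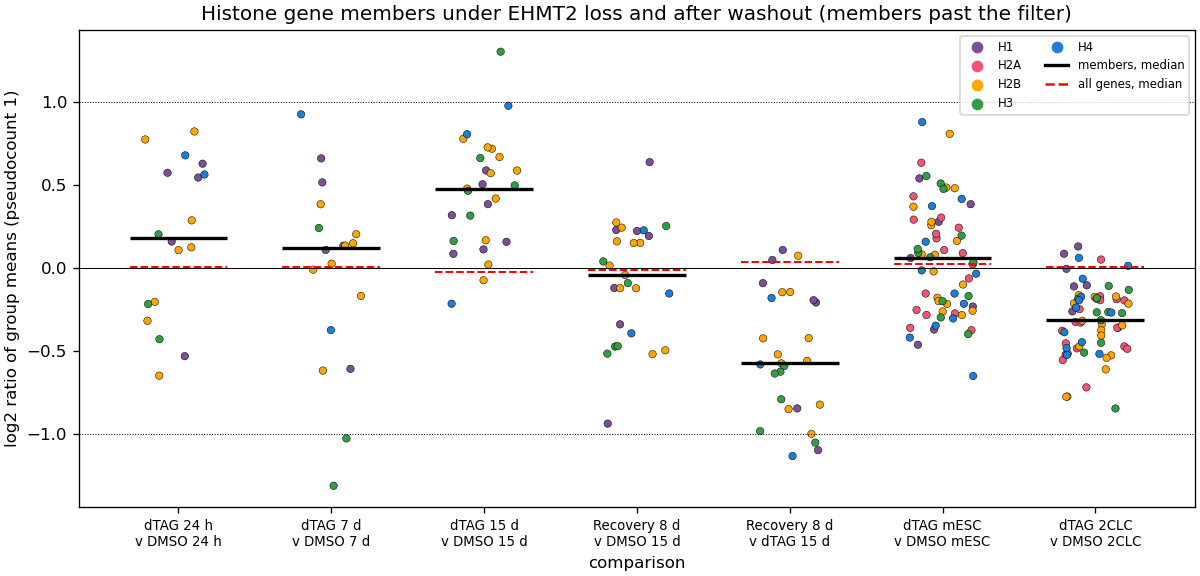
Difference between groups, as log2 of the ratio of group means after adding 1 (vertical), for the members past the filter in each comparison of dTAG, Recovery and DMSO (horizontal). Points are genes coloured by histone type, black bars the median of the members, red dashed bars the median of all genes, and dotted lines 2-fold. The members' medians lie furthest from 0 for dTAG 15 d against DMSO (0.48), Recovery against dTAG 15 d (-0.57) and dTAG 2CLC against DMSO 2CLC (-0.31).

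The Dppa4 experiment gave values per library. Dppa4 itself stood at 700 to 920 normalized counts in the WT libraries and at 0 in every KO library. Of the 72 members, 52 passed the expression filter among 17258 genes tested with limma and Benjamini-Hochberg adjustment over all of them. Calls needed an adjusted p below 0.05 together with a change of 2-fold or more.

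The replicative sum was 1935, 1852 and 2051 normalized counts in the WT DMSO libraries, 1671, 1708 and 2115 with UNC0638, 1492, 2821 and 2003 in KO DMSO and 1533, 2669 and 3313 in KO with UNC0638. The means were 1946 ± 99.6, 1831 ± 246, 2106 ± 670 and 2505 ± 901 (SD, n = 3). The 4 groups overlapped, and the KO libraries were spread the most.

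No member passed the test for UNC0638 in WT cells. In limma 0 of 52 were called, against 0.00% of all genes higher and 0.00% lower, and 0 had an unadjusted p under 0.05 in limma, edgeR or DESeq2. The median was 0.06, and the lowest estimates were those of H2bc6 (-0.93), H3c4 (-0.86) and H2ac19 (-0.64). The highest was that of H3c1, which stood at 0, 12.3 and 21.9 in DMSO and 17.6, 14.9 and 22.4 with UNC0638, followed by Hist1h4m (1.40) and H2ac6 (1.02). Of the lowest p-values, H2bc6 stood at 47.7, 40.6 and 38.5 in DMSO and at 19.4, 22.4 and 23.2 with UNC0638. Its libraries did not overlap, but its adjusted p in limma was 0.573 (SE 0.478), and those of Hist1h4m and H3c4 were 0.594 and 0.604. H4c9 stood at 66.3, 94.7 and 95.3 in DMSO and at 53.7, 81.3 and 78.2 with UNC0638, which overlap (-0.27, SE 0.389). The 2-cell marker sum of these libraries was 1644 to 4434 in DMSO and 2758 to 12085 with UNC0638, the highest being replicate 3. On data simulated for this comparison with 16599 genes, limma recovered 92.9% of 4-fold and 18.9% of 2-fold changes, so a 2-fold change would mostly be missed. The changed genes were drawn from all genes past the filter, and every gene was given the same median spread. The shares therefore need not hold for members, many of which have low counts.

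In KO cells UNC0638 likewise gave 0 of 52 members called in limma, against 0.411% of genes higher and 0.0521% lower. Hist1h2bp was the member with an unadjusted p under 0.05, 1 in each of limma, edgeR and DESeq2. It stood at 29.4, 53.0 and 10.5 in DMSO and at 19.3, 3.23 and 12.2 with UNC0638 (-1.35, SE 0.626, limma adjusted p = 0.315), and the groups overlapped. H2bc13 (-1.17) and Hist1h4n (-0.94) followed at the low end, and H2ac6 (1.25), H4c11 (1.12) and H4c4 (0.97) were highest. H2ac6 and H2bc6 (0.83) had the next lowest p, at limma adjusted values of 0.401 and 0.429. All 12 of 12 tested H2A members lay above 0 (median 0.46). In the other types 5 of 7 H1, 5 of 12 H2B, 9 of 11 H3 and 6 of 10 H4 members did. These near copies share reads and are not replicates. The H2A sum stood at 119, 170 and 167 in KO DMSO and at 137, 257 and 351 with UNC0638, which overlap. The means were 152 ± 28.5 and 248 ± 107 (SD, n = 3), and no H2A member was called. The difference of the UNC0638 effect between KO and WT was tested as an interaction. In limma 0 of 52 members were called, beside 0.00% of genes higher and 0.00% lower, and 1 (H2bc6, 1.77, SE 0.676, limma adjusted p = 0.775) had an unadjusted p under 0.05, as 1 did in edgeR and in DESeq2. The next lowest p were those of H3c4 (1.59) and Hist1h4m (-2.26), at the same adjusted value.

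KO and WT cells were also compared without the inhibitor. In DMSO, 0 of 52 members were called at 2-fold in limma, against 1.33% of all genes higher and 3.10% lower, and 5 had an unadjusted p under 0.05 (6 in edgeR and 7 in DESeq2). By adjusted p alone, at any size of change, 2 members rose, beside 2.39% of all genes. H1f0 stood at 3176, 2428 and 2553 in WT DMSO and at 4116, 5198 and 3922 in KO DMSO, with no overlap (0.70, SE 0.174, limma adjusted p = 0.0256). H1f10 stood at 481, 503 and 844 in WT and at 1132, 1283 and 940 in KO, also with no overlap (0.91, SE 0.241, limma adjusted p = 0.0336). Neither reached the 2-fold needed for a call. The limma adjusted p of H1f0 rose above 0.05 when WT DMSO replicate 2 or 3 or KO DMSO replicate 1 or 2 was left out. It ranged from 0.0214 to 0.117 over the 6 libraries of the comparison. That of H1f10 rose above 0.05 without WT DMSO replicate 1 or 2 or KO DMSO replicate 1 or 2, with a range of 0.0172 to 0.138. The p-values rest on the spread between the 3 libraries within each of the 4 groups, those with UNC0638 included, which share 1 model. Of 16 tested fibroblast markers 3 were lower in KO by limma adjusted p (median -0.68), and of 15 pluripotency markers 3 were higher (median 0.37). The part of these in the linker histone values was not tested.

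Of the 49 replicative genes tested, 0 had a limma adjusted p under 0.05, and whether they differed from the replacement genes was not tested. Their median was -0.11 in KO against WT, beside -0.03 for all genes, and 21 of 49 lay above 0. H4c11 had the highest estimate, at 2.33, 1.23 and 6.99 in WT DMSO and 13.7, 28.5 and 6.96 in KO DMSO (1.96, SE 0.791, limma adjusted p = 0.144), followed by H3c14 (1.43) and H4c12 (1.37). H1f1 had the lowest, at 59.3, 40.6 and 67.3 in WT and 5.87, 23.4 and 42.9 in KO (-1.51, SE 0.757, limma adjusted p = 0.233), followed by Hist1h2al (-1.37) and H2ac11 (-1.14). The third lowest p was that of H2bc8, at 38.4, 50.4 and 50.7 in WT and 18.6, 31.6 and 19.7 in KO, with no overlap (-0.99, SE 0.400, limma adjusted p = 0.142). H4c1, whose unadjusted p in limma was 0.0402, stood at 15.1, 17.2 and 13.1 in WT and 28.4, 36.7 and 31.3 in KO, also with no overlap (1.04, SE 0.465, limma adjusted p = 0.187). How many of all genes had groups without overlap was not counted, here or above. H4c9 stood at 67.5, 175 and 108 in KO DMSO, overlapping WT. Of 18 tested 2-cell markers 11 were called lower in KO. The full list of 23 holds Dppa4 itself, whose loss was set by the genotype. The sum of all 23 was 1013 to 1234 in KO DMSO and 726 to 974 in KO with UNC0638.

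**Figure D4:**
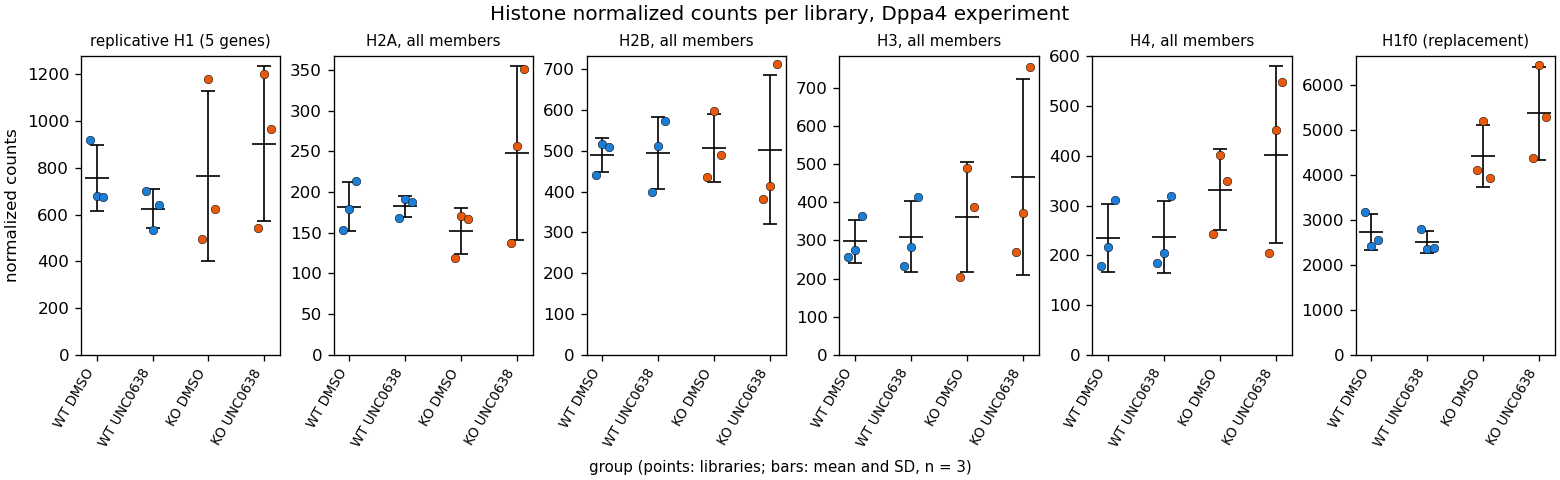
Normalized counts per library (points) with mean and SD (bars, n = 3) in the 4 groups of the Dppa4 experiment, for the sums of the 5 replicative H1 genes and of all H2A, H2B, H3 and H4 members and for H1f0, each on an axis from 0. The sums of the 4 groups overlap for each type, and H1f0 lies higher in all 3 KO DMSO libraries (3922 to 5198) than in all 3 WT DMSO libraries (2428 to 3176).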

How the data were processed

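RNA-seq libraries (45, in 15 groups of 3) were analysed from the tables the authors deposited. Per the paper's methods and the processing notes, the authors trimmed reads (Trim Galore 0.6.7), aligned them to mm10 with STAR 2.7.10, keeping reads of several places at 1 random place, counted them with TE Counts on GENCODE vM25, and normalized gene counts by DESeq2 size factors (1.34.0, R 4.1.0). The authors' alignment settings allowed no spliced reads, so genes with introns lose reads that genes without introns keep. Shares of the gene total and levels set beside spliced genes depend on this. The time course, washout and sorting tables hold the deposited normalized counts, a linear signal, as group means. The Dppa4 table holds deposited normalized counts per library, from which whole reads were recovered for 100% of values (tolerance 0.01 read). The authors' own fold changes and p-values, also deposited, were not used.

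The members, lists and rules were chosen with earlier results of these data known. Named genes were the 3 members of each type with the highest sorted means, the 3 lowest and 3 highest in each comparison, the 3 lowest p in each Dppa4 contrast, the replacement H1 genes, the 4 genes of each list furthest from 0 in DMSO 2CLC, and Ehmt2, Ehmt1 and Dppa4. Others named were chosen after their values were seen. Group means were compared as log2 ratios with a pseudocount of 1, keeping genes whose mean over the groups reached 10. In the Dppa4 experiment log2(normalized count + 1) was fitted with limma 3.58.1 (trend) in 1 model of the 12 libraries after edgeR's filterByExpr. Fold changes on this scale understate those of low genes. The script was tested on simulated data. edgeR 4.0.16 and DESeq2 1.42.0 were run on the recovered reads (R 4.3.3). Means were handled in Python 3.11.15 with pandas 2.3.3 and numpy 2.4.6. Other pseudocounts, filters, thresholds and scalings, a block on replicate number and leaving out each library were alternatives. Same-numbered WT libraries deviated together (r = 0.246, 0.103 and 0.431 between DMSO and UNC0638), and KO libraries did not (0.154, -0.0923 and 0.0129). The paper names 3 clonal lines, but no label ties a replicate number to a clone. The main model did not pair libraries, and the block treated a number as the same in WT and KO cells. For 10 members promoter sequence was not used here.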

Additional observations from a re-analysis of the deposited data

How the results depend on the processing

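The counts of members higher in 2CLC stayed within 1.5 times of the values given, with 0 lower, under every alternative run (pseudocounts of 0.5 and 5, no filter, a mean of at least 50, centring on the median of all genes, a 1.5-fold threshold, leaving out the replacement linker genes and a mean of at least 10 in mESC). Counts under dTAG and washout were less firm, since few members are well measured in unsorted cells. With no filter on low values, 11 members lay past 2-fold at dTAG 24 h, 5 at dTAG 7 d, 6 for DMSO 7 d against 24 h, 10 at dTAG 15 d, 1 for Recovery against DMSO, 14 for Recovery against dTAG, 2 for dTAG against DMSO mESC and 2 for dTAG against DMSO 2CLC. At a 1.5-fold threshold these counts were 5, 6, 2, 10, 2, 12, 4 and 5. A pseudocount of 5 left 1 at dTAG 7 d, a pseudocount of 0.5 gave 5 for Recovery against dTAG, and centring gave 2 at dTAG 15 d and 5 for Recovery against dTAG. With a mean of at least 50, 0 were left at dTAG 7 d and 0 at dTAG 15 d, where 5 and 6 members passed. Without its largest member, the H4 sum for Recovery against dTAG stood at -0.78 on the log2 scale, beside -1.02 with it. It changed sign without that member at dTAG 24 h (0.17 to -0.27), at dTAG 7 d (0.51 to -0.12) and for dTAG against DMSO mESC (0.33 to -0.10), as did, among others, the H3 sum at dTAG 7 d (-0.09 to 0.17) and the replicative H1 sum for Recovery against DMSO (-0.24 to 0.45).

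In the Dppa4 experiment, 81 of 84 counts of called members equalled the main count. Type sums, which were not tested, changed sign in several contrasts when 1 library was left out. By adjusted p alone KO against WT gave 2 members. At the 2-fold call the count was 0, and 0 to 1 when 1 library was left out, the 1 being without WT DMSO replicate 3 or without KO DMSO replicate 3. With the replicate block 0 members were called in every contrast, while genes called numbered 172 for UNC0638 in KO and 1021 for KO against WT, beside 80 and 765 without it. Paired by number, 6 of 6 WT libraries correlated best with their own number across treatments and 2 of 6 KO libraries did. Genes called in these contrasts were 37 and 659 in edgeR, 285 and 1075 in DESeq2 and 100 and 774 with TMM scaling, and for UNC0638 in WT 0 in edgeR and 14 in DESeq2.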
